A study of Mus musculus with 7 samples.

Results

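Integrins, cadherins and protocadherins are the surface proteins by which cells hold on to matrix and to each other. Their genes were taken by symbol from the mouse annotation as integrin alpha and beta subunits, cadherins with a number and protocadherins with a number, and the clustered Pcdha, Pcdhb and Pcdhg genes were left out. This gave 62 of 21924 protein-coding genes, of which 18 encode integrin alpha subunits, 9 integrin beta subunits, 23 cadherins and 12 protocadherins. A peak was counted at a gene when the authors' symbol named that gene, or when the peak lay in the gene body or within 5000 bp before its start. By this rule 37 of the 8949 peaks in the 4 deposited lists belonged to 23 of the genes, and the other 39 genes had no peak.

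The lists came from ATDC5, a mouse chondroprogenitor cell line derived from a teratoma, in which insulin, transferrin and selenite start differentiation into chondrocytes. 5-Methylcytosine (5mC) was mapped by methyl-CpG protein capture in progenitors at day 0 and in differentiating cells at day 10, with 1 sample each, and regions of at least 3-fold enrichment were listed. 5-Hydroxymethylcytosine (5hmC) was mapped by glucosylation and capture at days 5 and 10 of differentiation, with 2 samples per day that the authors merged before listing regions of at least 10-fold enrichment. No genotype or agent other than the differentiation medium is given for these samples, and the input DNA sample, which has no list, was not analysed here. How many cultures were used is not in the labels, and with 1 list per mark and day there was no replicate and no test of a difference between days. Days are those of the labels, which differ from the days in the study's text. In the study's text day 10 is an intermediate stage between progenitors and chondrocytes. Because its days differ from the labels, that text does not settle the stage of each list. The marks may thus not have been read in the same cells. Peak lists hold no expression, so the cell line could not be checked against chondrocyte marker genes.

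An integrin is a pair of an alpha and a beta subunit that binds collagen, laminin, fibronectin or other matrix proteins outside the cell and, through adaptors such as talin and paxillin, actin inside it. Classical cadherins bind the same cadherin on the next cell and hold catenins at their cytoplasmic tail, and N-cadherin (Cdh2) is known for its part in the condensation of mesenchyme that precedes cartilage. 5mC is the common methylated base of mammalian DNA, found mainly at CpG, and TET enzymes oxidise it to 5hmC.

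Cdh4, Cdh13, Cdh23 and Itgb5 were the only genes of the 62 at which a day 10 5hmC peak overlapped a day 5 5hmC peak. The DNA of those 4 day 10 peaks is shown first because it differed between them. Sequences are the plus strand of the GRCm38 reference in RefSeq, not the DNA of the ATDC5 cells, and capitals mark CpG.
Cdh4, chr2:179669148-179669269: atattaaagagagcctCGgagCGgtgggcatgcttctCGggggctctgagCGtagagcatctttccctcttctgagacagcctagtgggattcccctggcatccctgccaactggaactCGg
Itgb5, chr16:33904052-33904194: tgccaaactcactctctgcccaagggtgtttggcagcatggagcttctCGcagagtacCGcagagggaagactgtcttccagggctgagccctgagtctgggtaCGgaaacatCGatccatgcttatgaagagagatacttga
Cdh13, chr8:118847210-118847268: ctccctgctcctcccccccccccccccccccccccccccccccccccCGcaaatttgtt
Cdh23, chr10:60445825-60445884: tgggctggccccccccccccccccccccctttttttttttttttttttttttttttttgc

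The Cdh4 peak of 122 bp held 5 CpG and the Itgb5 peak of 143 bp held 4. The Cdh13 peak of 59 bp was mainly a run of 36 C with 1 CpG, and the Cdh23 peak of 60 bp was a run of C followed by a run of 29 T, with 0 CpG. The reference marks 93.2% of the Cdh13 bases and 95% of the Cdh23 bases as repeat, against 18% at Cdh4 and 15.4% at Itgb5.

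Peaks were counted per gene first. In the day 0 5mC list 2 of the 62 genes had a peak (3.23%, exact 95% interval 0.393 to 11.2), against 0.556% of all protein-coding genes. In the day 10 5mC list it was 13 genes (21%, 11.7 to 33.2) against 6.72%. The day 5 5hmC list had 7 genes (11.3%, 4.66 to 21.9) against 5.28%, and the day 10 5hmC list had 10 (16.1%, 8.02 to 27.7) against 8.32%. These are Clopper-Pearson intervals and cover counting error over genes only.

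The genes are long, with a median of 79.2 kb against 17.4 kb for all protein-coding genes, and long genes offer more room for a peak. Set against protein-coding genes of the same 5 length classes, in the same proportions, the shares to compare with were 1.46% for day 0 5mC, 13.6% for day 10 5mC, 11.6% for day 5 5hmC and 18.9% for day 10 5hmC. All 4 of these lay inside the intervals above. Per Mb of gene and upstream sequence the day 10 5hmC list had 1.06 peaks in the 62 genes and 2.2 in all protein-coding genes. The same rates were 0.654 and 1.13 for day 5 5hmC, 1.14 and 1.51 for day 10 5mC, and 0.164 and 0.106 for day 0 5mC. Thus the share of genes with a peak was above the background of all genes in each list, but that background lay inside the intervals of both 5hmC lists. Against genes of the same length classes the share was above in both 5mC lists and below in both 5hmC lists. The number of peaks per length was below that of all protein-coding genes in the 3 lists other than day 0 5mC.

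**Figure D1:**
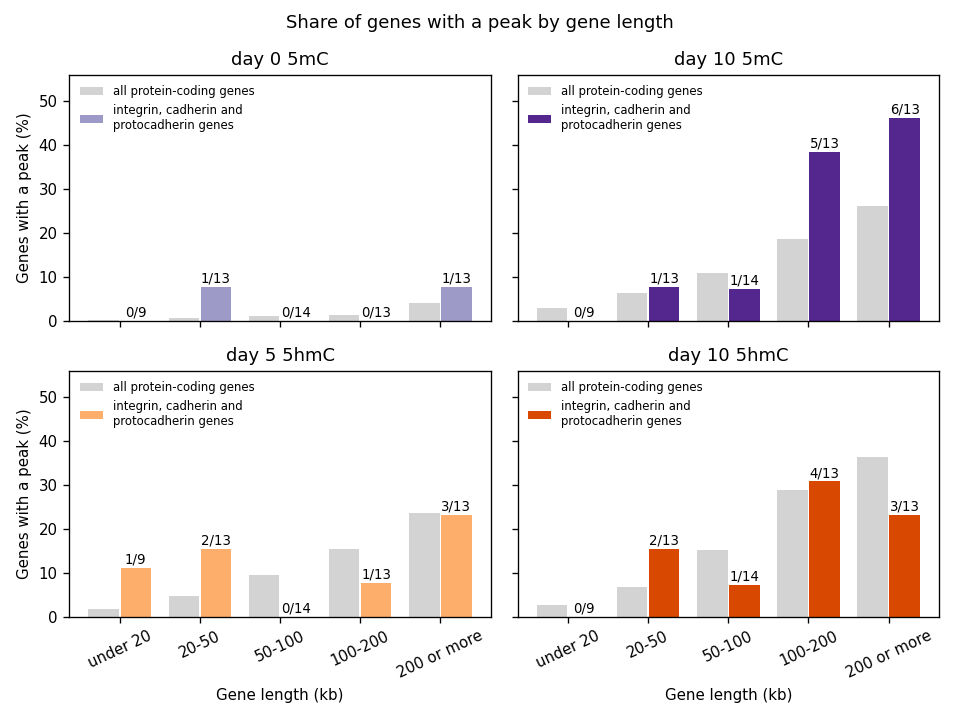
Share of genes with a peak (%, y axis) in each of the 4 lists, for 5 classes of gene length (kb, x axis). Grey bars are all protein-coding genes and coloured bars the integrin, cadherin and protocadherin genes, with the number of genes with a peak over the number in the class. In the grey bars the share rises with length in every list, and the coloured bars stand on 9 to 14 genes each.

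Within the length classes, 1 of 9 genes under 20 kb, 6 of 13 from 20 to 50 kb, 1 of 14 from 50 to 100 kb, 8 of 13 from 100 to 200 kb and 7 of 13 of 200 kb or more had a peak in any list. The corresponding shares of protein-coding genes were 6.44%, 15.8%, 28.5%, 44.3% and 54.4%. The 6 genes of 200 kb or more without a peak were Cdh2, Cdh8, Cdh12, Cdh18, Cdh20 and Pcdh11x. Cdh12, of 1140 kb, was the longest gene of the 62 with no peak, and Pcdh15, of 1550 kb, was the longest with one.

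Peak density was then read by family. In the day 10 5hmC list integrin genes had 3.72 peaks per Mb, cadherin genes 0.642 and protocadherin genes 0.26. The day 5 5hmC rates were 1.86, 0.642 and 0, and those of day 10 5mC were 2.33, 0.642 and 1.3. The integrin rates rest on 8, 4 and 5 peaks over 2.15 Mb, and 3 of the 8 and 2 of the 4 lay in Itgb5 alone. Over all protein-coding genes these rates were 2.2, 1.13 and 1.51. The median gene length was 56.9 kb for integrins, 145 kb for cadherins and 76.3 kb for protocadherins. By genes and not by length, 18.5% of integrin, 17.4% of cadherin and 8.33% of protocadherin genes had a day 10 5hmC peak. Protein-coding genes of the same length classes had 14.8%, 23.9% and 18.5%. These differences between families were not tested.

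**Figure D2:**
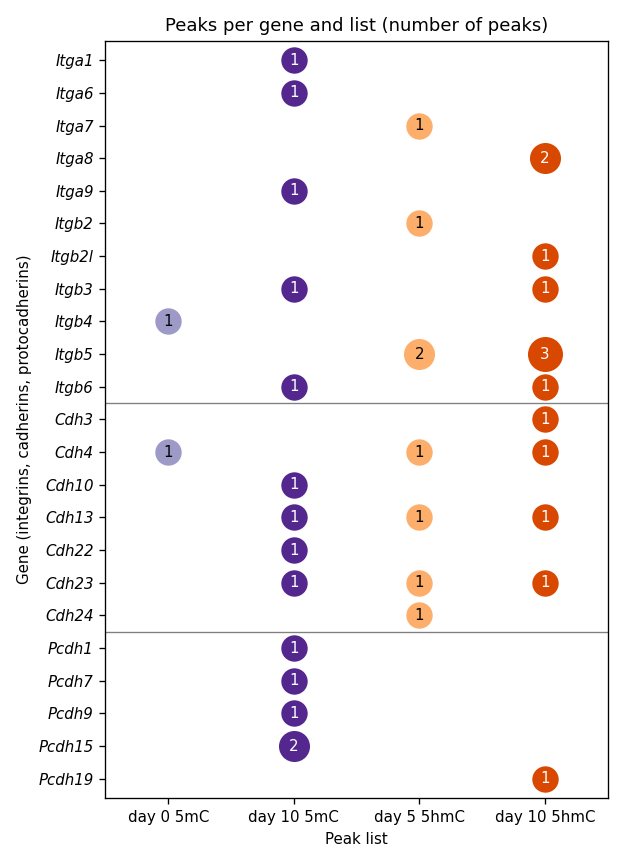
Number of peaks in each of the 4 lists (x axis) for the 23 genes with a peak (y axis), with integrins above, cadherins in the middle and protocadherins below. Circles carry the number of peaks and an empty place means that the list had none. Itgb5 has the most peaks, 5, all of 5hmC, and protocadherins have 5 peaks of 5mC and 1 of 5hmC.

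Integrin alpha subunits confer much of the choice of ligand. Of the 18 alpha genes 5 had a peak in any list (27.8%), against 27.5% of protein-coding genes of the same length classes, and none had peaks in more than 1 list. The laminin-binding subunit Itga7, best known from muscle, had the widest 5hmC peak of day 5 at any of the 62 genes. It spanned 1196 bp at chr10:128949822-128951017, over coding exons 20 and 21 of 25, and was also the only one of these 5hmC peaks that met a coding exon. Itga8, whose product pairs with the beta 1 subunit and binds nephronectin, had 2 day 10 5hmC peaks of 238 and 126 bp, in introns 25 and 15.

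The other alpha genes with a peak had it in the day 10 5mC list, and each peak met a coding exon. Itga1, a collagen receptor subunit, had a peak of 874 bp over exon 13 of 29. Itga6, a laminin receptor subunit, had a peak of 985 bp over the last exon, number 26. Itga9, which binds tenascin and osteopontin, had a peak of 834 bp over exon 25 of 28. All 3 peaks lay in the later part of the gene, at 72.4%, 97.9% and 90.1% of its length from the start.

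Integrin beta subunits carry the cytoplasmic tail that binds talin and kindlin. Of the 9 beta genes 6 had a peak in any list (66.7%, exact 95% interval 29.9 to 92.5), and 23.9% of protein-coding genes of the same length classes did. A 5hmC peak of either day was present at 5 of the 9 (55.6%, 21.2 to 86.3), against 17.2% of length-matched genes. Both counts take in Itgb2l, whose only peak lay 3.61 kb before the gene and inside Igsf5. The intervals lie above the length-matched shares only with that peak counted. Exact 95% intervals for 5 of 9 and 4 of 9 genes start at 21.2 and 13.7, below 23.9% and 17.2%. The beta subunits were set apart from the alpha subunits as a role and not by a value, but 9 genes are few and the difference was not tested. Itgb1, the subunit shared by the most integrins and by the collagen receptors, had no peak, and nor did Itgb7 or Itgb8.

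Itgb5, the partner of the alpha V subunit in a vitronectin receptor, had 2 peaks at day 5 and 3 at day 10, all of 5hmC and all in introns. The day 5 peaks were at chr16:33892382-33893451 in intron 5 and chr16:33903906-33905064 in intron 8, of 1070 and 1159 bp. The day 10 peaks were at chr16:33882627-33882904 in intron 4, chr16:33889486-33889682 in intron 5 and chr16:33904052-33904194 in intron 8, of 278, 197 and 143 bp. Of the 3 day 10 peaks, the one in intron 8 lay inside its day 5 peak, the one in intron 5 lay 2.7 kb from the nearest day 5 peak and the one in intron 4 lay 9.48 kb from it. The peak of 278 bp was the widest day 10 5hmC peak at any of the 62 genes. Neither 5mC list had a peak in Itgb5, and the nearest day 10 5mC peaks lay 115 to 136 kb from its 5 peaks.

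The day 10 peaks of Itgb5 and Itga8 that did not overlap a day 5 peak are shown for comparison with the shared ones above, and none of them holds a single-base run of 15 or more. In the first pair capitals mark CpG.
Itgb5, chr16:33889486-33889682: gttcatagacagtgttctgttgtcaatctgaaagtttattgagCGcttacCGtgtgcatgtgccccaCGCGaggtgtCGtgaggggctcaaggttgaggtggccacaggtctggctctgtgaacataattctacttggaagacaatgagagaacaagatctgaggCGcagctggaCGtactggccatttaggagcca
Itga8, chr2:12198888-12199013: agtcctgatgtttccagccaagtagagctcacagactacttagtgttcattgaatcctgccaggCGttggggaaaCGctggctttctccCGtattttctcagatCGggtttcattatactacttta

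The Itgb5 peak held 7 CpG, or 3.55 per 100 bp against 0.508 in its flanks. The Itga8 peak held 4, or 3.17 per 100 bp against 0.397. In the second pair capitals mark TTGGCA or its reverse complement TGCCAA, an arm of the palindrome that nuclear factor I (NF1) proteins bind.
Itga8, chr2:12154808-12155045: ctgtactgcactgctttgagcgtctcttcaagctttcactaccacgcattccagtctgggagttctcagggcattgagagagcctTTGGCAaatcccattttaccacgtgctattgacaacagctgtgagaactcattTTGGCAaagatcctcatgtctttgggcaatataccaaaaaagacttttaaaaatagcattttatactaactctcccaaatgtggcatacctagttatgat
Itgb5, chr16:33882627-33882904: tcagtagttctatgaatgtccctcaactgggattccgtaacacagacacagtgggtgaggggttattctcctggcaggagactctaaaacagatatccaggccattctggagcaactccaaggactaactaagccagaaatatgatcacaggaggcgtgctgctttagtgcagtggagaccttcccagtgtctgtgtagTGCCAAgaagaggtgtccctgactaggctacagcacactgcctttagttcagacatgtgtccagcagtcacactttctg

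Itgb3 and Itgb6, both partners of alpha V, had 1 peak of each mark at day 10. At Itgb3 the 5hmC peak of 158 bp was at chr11:104662871-104663028 in intron 13 and the 5mC peak of 1395 bp was at chr11:104669433-104670827 over the noncoding part of the last exon, number 15, and the end of the gene. They lay 6.41 kb apart. At Itgb6 the 5hmC peak of 199 bp was at chr2:60719111-60719309, 3.43 kb from the gene start, before the first exon of the transcript with the longest coding sequence. The Itgb6 5mC peak of 536 bp was at chr2:60608273-60608808 in intron 13, 110 kb away.

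Itgb2, the beta subunit of leukocyte integrins, had a day 5 5hmC peak of 852 bp in intron 14. Itgb4, the hemidesmosome subunit that pairs with alpha 6, had a day 0 5mC peak of 917 bp at chr11:115998123-115999039, the widest day 0 peak at these genes. It met coding exon 27 of 40, and 69.8% of its bases are marked as repeat. The day 10 5hmC peak counted at Itgb2l, of 123 bp, lay 3.61 kb before that gene and inside Igsf5.

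Of the 23 cadherin genes 7 had a peak in any list (30.4%, exact 95% interval 13.2 to 52.9), against 15.9% of all protein-coding genes and 38% of those of the same length classes. Cdh4, Cdh13 and Cdh23 each had peaks in 3 of the 4 lists, more lists than any integrin or protocadherin gene, and each had exactly 1 peak per list. These are long genes of 457, 1041 and 394 kb.

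Cdh4 encodes R-cadherin, a classical cadherin of retina and brain. Its day 5 5hmC peak of 703 bp at chr2:179668567-179669269 and its day 10 5hmC peak of 122 bp at chr2:179669148-179669269 ended at the same base, in intron 2 and at 49.6% of the gene's length. Its day 0 5mC peak of 753 bp, at chr2:179499435-179500187, lay in the same intron 168 kb from the day 5 peak, and the day 10 5mC list had no peak in the gene. CpG stood at 4.1 per 100 bp in the day 10 5hmC peak and 3.7 in the day 5 peak. It was 0.266 in the day 0 5mC peak, below the 0.73 of its flanks. The medians of the whole lists were 1.8, 1.61 and 0.523 in that order, so the day 0 5mC list was low as a whole.

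Cdh13 encodes T-cadherin, which has no transmembrane segment and is held by a lipid anchor. The day 5 5hmC peak of 413 bp was at chr8:118847009-118847421 in intron 4, around the day 10 peak of 59 bp shown above. The day 10 5mC peak of 1079 bp was at chr8:118744609-118745687 in intron 3, 102 kb from the day 10 5hmC peak.

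Cdh23, a cadherin of the tip links of hair cells, had its day 5 5hmC peak of 700 bp at chr10:60445566-60446265 in intron 15, around the day 10 peak of 60 bp. Its day 10 5mC peak of 1407 bp at chr10:60384295-60385701 lay over coding exon 33 of 71, 60.1 kb from the 5hmC site. It was the widest of the day 10 5mC peaks at these genes. At Cdh4, Cdh13 and Cdh23 the 5hmC and 5mC peaks thus lay in different places of the same gene.

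The other cadherin genes had 1 peak each. Cdh3 (P-cadherin) had a day 10 5hmC peak of 142 bp in intron 2, 6.01 kb from the gene start. Cdh10 and Cdh22, both type II cadherins known mainly from brain, had day 10 5mC peaks of 910 and 1264 bp over coding exons, exon 12 of 12 in Cdh10 and exons 9 and 10 of 12 in Cdh22. The day 5 5hmC peak of 695 bp counted at Cdh24 lay 3.11 kb before the gene and inside Acin1, which the authors' column names.

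**Figure D3:**
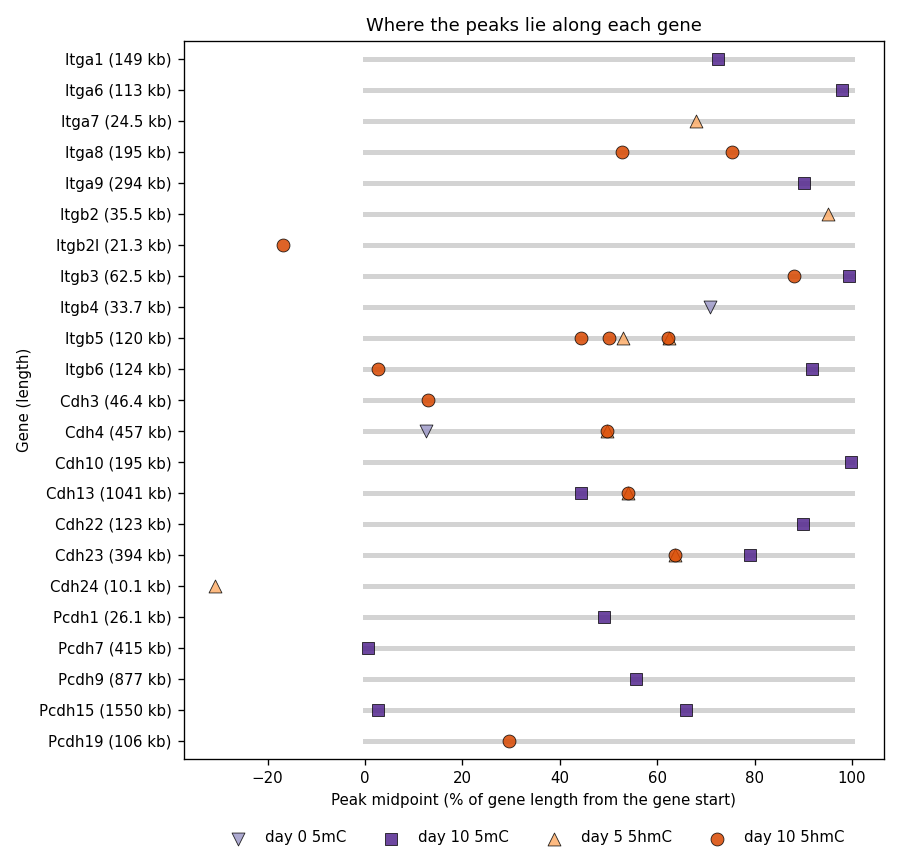
Midpoint of each of the 37 peaks as a percentage of the gene's length from its start (x axis) for the 23 genes (y axis, with gene length), with 1 marker shape and colour per list and grey lines for the gene bodies. Values below 0 are before the gene. At Cdh4, Cdh13, Cdh23 and Itgb5 a day 5 and a day 10 5hmC marker coincide, and 7 of the 14 day 10 5mC squares lie in the last 25% of their genes.

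Protocadherins lack the catenin-binding tail of classical cadherins. Of the 12 genes 4 had a day 10 5mC peak (33.3%, exact 95% interval 9.92 to 65.1), against 6.72% of all protein-coding genes and 13.6% of those of the same length classes. A day 10 5hmC peak was present at 1 gene (8.33%), against 8.32% and 18.5%. No gene had both marks, as 7.31% of length-matched genes did. The count was 0 of 12 in the day 0 5mC and day 5 5hmC lists, and a count of 0 here allows up to 25% by a limit of 3 counts and 26.5% by the exact 95% interval. Pcdh7 had a 5mC peak of 622 bp in its first exon, which is coding, 2.42 kb from the gene start and with 6.11 CpG per 100 bp, the highest value among the 37 peaks. Pcdh1 had a peak of 846 bp in coding exon 2, with 4.96 CpG per 100 bp. The Pcdh9 peak of 549 bp was in intron 3.

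Pcdh15, which joins Cdh23 in the tip link, had 2 day 10 5mC peaks of 914 and 989 bp, both in introns and 40.6 and 1020 kb from the gene start. The first held 0.766 CpG per 100 bp, below its flanks, and the second 2.73, above them. Pcdh19, on the X chromosome, had the only 5hmC peak of the family, of 119 bp in intron 3 at day 10.

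Genes known in cartilage or in mesenchymal condensation were read as a list of 14, chosen with earlier results of these data known. Of these 4 had a peak in any list (28.6%), against 31.7% of protein-coding genes of the same length classes, namely Itga1, Itga6, Itgb3 and Itgb5. The other 10 were Cdh2, Cdh11, Itga2, Itga3, Itga5, Itga10, Itga11, Itgav, Itgb1 and Itgb8. Cdh2 (N-cadherin) lay 1530 kb from the nearest day 10 5mC peak and 2990 kb from the nearest day 10 5hmC peak. Cdh11, the cadherin of loose mesenchyme and bone-forming cells, lay 635 and 628 kb from them. Itga10, a collagen receptor subunit of chondrocytes, lay 178 and 160 kb away, and Itgb1 1280 and 837 kb away. Itga11, another collagen receptor subunit, was the nearest miss, with a day 5 5hmC peak 2.39 kb outside the gene, on the side that the counting rule does not take in. Itgav followed, with a day 10 5hmC peak 11.2 kb away. The nearest 5hmC peak of either day lay 25.5 kb from Itga3, 98 kb from Itga2, 250 kb from Itga5 and 1650 kb from Itgb8.

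The place of the peaks within the genes was read for each mark, with no test between the marks. Of the 13 day 10 5hmC peaks 12 were in introns (92.3%, exact 95% interval 64 to 99.8), against 79.2% of that list's peaks at protein-coding genes. Of the 8 day 5 5hmC peaks 6 were in introns (75%) against 64.5%. Of the 14 day 10 5mC peaks 9 met an exon (64.3%, 35.1 to 87.2) against 52%, and 8 of those 9 met coding sequence. Placed by their midpoint alone, 50% of the day 10 5mC peaks were in introns, and 35.7% when any overlap with an exon counted. The median position of the day 10 5mC peaks was 75.8% of the gene's length from the start, against 60% over all protein-coding genes, and 50% of them lay in the last 25% of the gene against 34.2%. The day 10 5hmC peaks had a median position of 51.4%, against 49.6%. All of these backgrounds lay inside the intervals where one is given. No peak met the window from 250 bp before to 50 bp after the RefSeq start of the 41 genes for which one was at hand.

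5hmC peaks of day 5 and day 10 coincided at 4 places. At day 5, 4 of 8 peaks shared bases with a peak of day 10 (50%, exact 95% interval 15.7 to 84.3), against 29.6% of the whole list. At day 10, 4 of 13 shared bases with a peak of day 5 (30.8%, 9.09 to 61.4), against 17.1%. In all 4 pairs the day 10 peak lay wholly inside the day 5 peak and covered 14.3% of it at Cdh13, 8.57% at Cdh23, 17.4% at Cdh4 and 12.3% at Itgb5. With the requirement that at least 50% of both peaks be shared, no pair was left. The widths fix this outcome, since each day 10 peak is too narrow to cover 50% of its day 5 peak.

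The Cdh13 and Cdh23 pairs hold the runs of a single base shown above. Peaks with a run of 15 or more of the same base made up 3.41% of the day 10 5hmC list but 19 of its 36 peaks of 60 bp or less (52.8%), to which the Cdh13 and Cdh23 peaks belong. Over the whole list such runs were in 18 of the 710 day 10 peaks with a day 5 partner (2.54%) and in 124 of the 3454 without one (3.59%). Without all peaks that hold such a run, 2 of 6 peaks of day 5 had a day 10 partner (33.3%), against 28.9% of the list, and 2 of 11 peaks of day 10 had a day 5 partner (18.2%), against 16.1%. The pairs at Cdh4 and Itgb5 remained. The run length was chosen after the sequences were seen, and the part of such runs in the 2 overlaps was not tested.

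**Figure D4:**
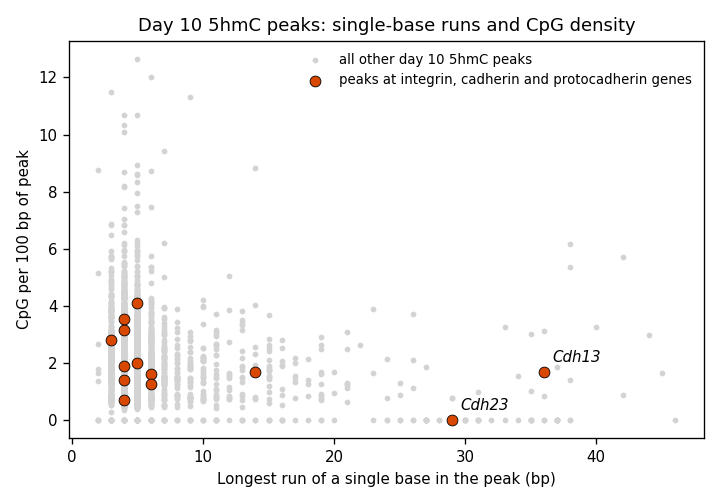
Longest run of a single base (bp, x axis) against CpG per 100 bp (y axis) for the 4164 day 10 5hmC peaks, with the 13 peaks at integrin, cadherin and protocadherin genes in orange and all others in grey. The Cdh13 and Cdh23 peaks stand at runs of 36 and 29 bp, and the other 11 at runs of 3 to 14 bp.

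No day 10 5hmC peak at these genes overlapped a day 10 5mC peak, and 0 of 13 allows up to 23.1% by a limit of 3 counts and 24.7% by the exact 95% interval. In the whole list 0.696% did, a share that 13 peaks are too few to show. Both marks were present somewhere in 5 genes (8.06%), Cdh4, Cdh13, Cdh23, Itgb3 and Itgb6, against 6.82% of protein-coding genes of the same length classes. Both 5hmC days were present in 4 genes (6.45%), against 6.92%.

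Peak widths followed their lists. The median width was 912 bp for the 14 day 10 5mC peaks against 1006 bp for the list, 777.5 bp for the 8 day 5 5hmC peaks against 819 bp, and 142 bp for the 13 day 10 5hmC peaks against 147 bp. The day 10 5hmC peaks were thus narrow in the whole list as well as at these genes.

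**Figure D5:**
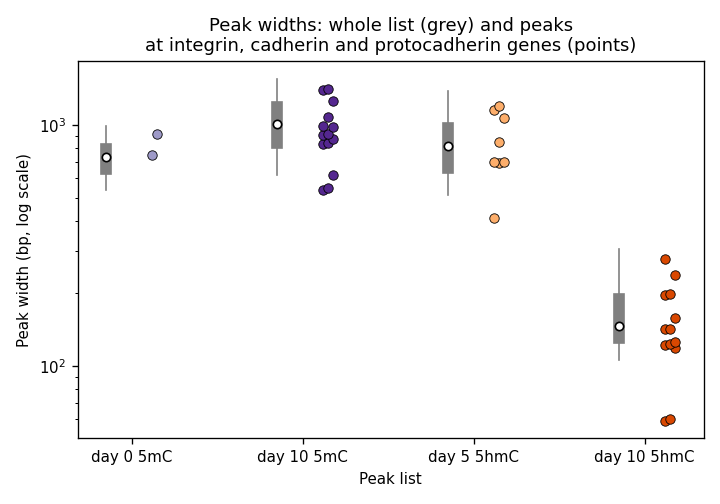
Width of peaks in bp (y axis, log scale) by list (x axis). Grey marks give the whole list, with the median as a white dot, the interquartile range as a thick bar and the 5th to 95th percentile as a thin line, and points are the peaks at integrin, cadherin and protocadherin genes. The day 10 5hmC points lie between 59 and 278 bp, below all points of the day 5 5hmC list, the narrowest of which is 413 bp.

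CpG was denser in the peaks than in flanks of the same width 2000 bp away at 12 of 14 day 10 5mC peaks (85.7%, whole list 90.3%), 6 of 8 day 5 5hmC peaks (75%, list 79.5%) and 11 of 13 day 10 5hmC peaks (84.6%, list 70.5%). Neither of the 2 day 0 5mC peaks, at Cdh4 and Itgb4, was denser than its flanks, and in that list 38% were. The day 10 5hmC exceptions were the Cdh23 peak, with 0 CpG, and the Itgb5 peak in intron 4, with 0.719 per 100 bp against 2.34 in its flanks.

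Short motif strings were counted on both strands. TTGGCA was present in 6 of 8 day 5 5hmC peaks (75%, list 48.1%) and in 4 of 13 day 10 5hmC peaks (30.8%, list 17.9%). Those 4 were in Cdh4, in Itga8 and in 2 of the 3 peaks of Itgb5, and the Itga8 peak and the Itgb5 peak of intron 8 held it 2 times. In the sequences above it starts at base 30 of the Itgb5 peak of intron 8 and at base 86 of the Itga8 peak. An AP-1 string (TGACTCA or TGAGTCA, which are each other's reverse complement) was present in 1 of the 8 day 5 5hmC peaks, at Itga7, and in 0 of the 13 day 10 peaks, against 43.1% and 7.97% of the lists. The RUNX string AACCACA was in 2 of 8 and 0 of 13 (lists 25.6% and 7.56%), and the SOX strings ACAATGG or ACAAAGG were in 1 of 8 and 0 of 13 (27.2% and 5.38%). A string of this length occurs by chance in wide peaks, so the rates of the 2 lists cannot be compared with each other.

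Genes that act with these receptors were read from a list of 36. Of 19 integrin adaptors 4 had a day 5 5hmC peak (21.1%) and 5 a day 10 5hmC peak (26.3%). Over all protein-coding genes the shares were 5.28% and 8.32%. The adaptors had 3 and 4.5 such peaks per Mb, against 1.13 and 2.2 over all protein-coding genes. Pxn (paxillin), a scaffold of focal adhesions, had 2 and 3 such peaks and Tln2 (talin 2), which links beta tails to actin, had 1 and 3. Tns3, a tensin, had 2 and 1, Tns1 had 1 at day 5, and Parva and Bcar1 had 1 each at day 10. Pxn, Lims1 and Tns1 also had 1 day 10 5mC peak each, and the other 12 adaptors, Tln1, Vcl, Ptk2 and Ilk among them, had no peak in any list. Of 8 catenins and their relatives Ctnna2 had 1 day 5 5hmC peak, Ctnnd1 1 day 10 5hmC peak, and Ctnnd2 1 day 0 and 2 day 10 5mC peaks, while Ctnnb1 (beta-catenin) had none. Among 9 atypical cadherins Fat1 had 6 day 10 5mC peaks, and Celsr1, Celsr2 and Dchs1 had 1 or 2 peaks each. In each 5hmC list catenins had 0.252 peaks per Mb and atypical cadherins 0.707, below the rate of all protein-coding genes. A peak was present at 12.5% and 11.1% of them in each 5hmC list. Day 10 5mC peaks were at 15.8% of adaptors, 12.5% of catenins and 33.3% of atypical cadherins, against 6.72% of all genes. Median lengths were 71.3, 141 and 117 kb against 17.4 kb, and the shares were not matched for length.

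Of the 44 collagen genes, which encode integrin ligands, 17 had a day 10 5hmC peak (38.6%) at 4.14 peaks per Mb, against 10 of the 62 adhesion genes at 1.06. At day 5 the shares were 18.2% and 11.3%. In the day 10 5mC list the order was the other way, with 11.4% of collagen genes and 21% of the adhesion genes, while the peaks per Mb were 1.08 and 1.14. Of 45 semaphorin, ephrin, Eph receptor and Slit genes, which guide cells and axons, 22.2% had a day 10 5hmC peak, 11.1% a day 5 5hmC peak and 11.1% a day 10 5mC peak. These guidance genes had 1.84, 0.849 and 0.99 peaks per Mb in the same order. Collagen genes were longer by median, with 114 kb, and guidance genes shorter, with 36.9 kb. Gene and upstream sequence came to 5.56 Mb for the 44 collagen genes, 7.07 Mb for the 45 guidance genes and 12.2 Mb for the 62 adhesion genes. No difference between the groups was tested.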

How the data were processed

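Per the labels and the paper's methods, single-end reads were trimmed by the authors with cutadapt, checked with FastQC, aligned to GRCm38 with BWA and passed to MACS 1.4.2 for peak calling. The deposited files are 4 peak lists whose other values are the start and end of each peak, with a gene symbol for part of them and no score, count or fold per peak. Per the file headers the fold limits were 3 for 5mC and 10 for 5hmC, and the control sample is not given in the sources used here. The methods describe a search for gain or loss of the marks, so the lists may hold differences and not all sites. Depth is unknown, and a deeper sample or another control would change the number and width of peaks. The 5hmC files end in 27818 and 25449 rows with no values, which were not read.

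Widths are end minus start plus 1. The files do not state whether starts count from 0, a difference of 1 bp. Genes are those of GENCODE mouse release 21. A peak that met the 5000 bp before the gene by at least 1 bp counted as promoter, else one that met an exon of any transcript as exon and the rest of the body as intron. The background used any protein-coding gene in the same way. Distances from gene starts are to peak midpoints. Exon numbers are those of the transcript with the longest coding sequence. Flanks have the peak's width and start 2000 bp away on either side. Scripts ran in Python 3.11.15 with pandas 2.3.3, numpy 2.4.6, scipy 1.17.1 and pysam 0.24.0, and were tested on planted peaks and motifs. The members, the lists of partner and cartilage genes and the alternatives were chosen with earlier results of these data known. Every gene with a peak is named, and coordinates are given for genes in 2 or more lists, for overlapping peaks and for the widest peak of each list.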

Additional observations from a re-analysis of the deposited data

How the results depend on the processing

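The files give no score per peak, so a stricter fold limit was not run, and no replicate could be left out. No paired analysis was possible because the numbered 5hmC samples were merged by the authors into 1 list per day. With only peaks of at least their list's median width, 4 genes had a day 10 5mC peak, 3 a day 5 5hmC peak and 4 a day 10 5hmC peak, with 4, 4 and 5 peaks. By its design this setting took in fewer peaks. With peaks placed by their midpoint the intron share of day 0 5mC was 100%. With 2000 bp upstream that of day 10 5hmC was 100%. Over all annotated genes the background was 0.338%, 3.47%, 2.82% and 4.62% in the order day 0 5mC, day 10 5mC, day 5 5hmC and day 10 5hmC. With at least 50% of both peaks shared, 0% of day 5 and 0% of day 10 5hmC peaks overlapped the other day. The widths of the paired peaks fix that outcome. Without peaks that hold a single-base run of 15 or more, an alternative chosen after seeing the data, the share of day 10 5hmC peaks overlapping day 5 went from 30.8% to 18.2% and that of day 5 peaks from 50% to 33.3%. By midpoint the intron share of day 10 5mC went from 35.7% to 50%. The shares without single-base runs and the day 10 5mC share by midpoint stayed inside the exact intervals of the reported ones. The intron shares of 100% and the overlaps of 0% given above did not. In all, 70 values under alternatives stayed inside those intervals or, for counts, within 1.5 times the reported count, and 14 did not. The 14 take in the background shares over all annotated genes, which have no interval. Many alternatives recounted the same few peaks, so the tally is not a measure of robustness.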
